A study of Mus musculus with 6 samples.

Results

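The 10 genes described here, Ptprc, Cd52, Cd53, Cd37, Cd48, Cd44, Laptm5, Ptpn6, Rac2 and Plac8, code for membrane and signalling proteins that most kinds of white blood cell carry. They were chosen with the ratios between food-restricted and control blood already known, as a gauge of total white cell RNA, so those ratios are a description of them and carry no test. Every probe whose transcript accession belonged to 1 of the 10 genes was taken, which gave 19 of 41174 probes and 10 of 16535 named genes on the array.

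The donors of the blood were inbred C57BL/6J males aged 9 weeks, 8 on each diet. One group received food restriction (FR) of 50% for 2 weeks and the control group received normal chow, and blood was drawn from the right ventricle of the heart. Samples were combined by diet into 3 pools. All 8 mice of a diet went into pool 1, mice 1 to 4 into pool 2 and mice 5 to 8 into pool 3. An FR pool and the control pool with its number shared 2 Agilent arrays of exchanged dyes, which made 6 arrays. Pools 2 and 3 have no mouse in common, so they are the 2 replicates behind each mean and SD. Pool 1 measured the same animals again and stands apart as a repeat. Pooling hides the spread between single mice.

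White blood cells share a set of surface and signalling proteins whatever their lineage. CD45, the product of Ptprc, is the best known of them, and it is the usual marker by which white cells are told from red cells and from cells of solid tissues. These proteins set the threshold of antigen and Fc receptor signalling, organise the membrane, and drive adhesion and migration. Mature mouse red cells carry little RNA of this kind, and platelets and young red cells supply much of the remaining RNA in whole blood.

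Between 20.0% and 55.0% of the probes on an array exceeded background clearly in FR, against 36.7% to 61.5% in control, and 0 spots were saturated. These shares depended on the dye. With FR in Cy5 they were 55.0% in FR against 41.7% in control in pool 1, 33.7% against 36.7% in pool 2 and 43.9% against 39.2% in pool 3. With FR in Cy3 the FR share was below the control share in every pool. The tissue label was checked against red cell genes. All 12 erythroid markers tested exceeded background in FR on each array of pools 2 and 3, among them the haemoglobin gene Hba-a1 with a log2 ratio of 0.01 ± 0.21 and the haem synthesis gene Alas2 with 0.09 ± 0.26 (SD, n = 2 pools). A ratio compares shares of the labelled RNA and not amounts per cell or volume, and the median over all 11501 features tested was 0.01. In RNA from whole blood, fewer cells of a type and less RNA per cell cannot be told apart.

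All 10 genes had lower ratios in FR than in control blood. The median log2 ratio over the probes that stand for them was -1.39. It was -1.39 in pool 1, -1.65 in pool 2 and -1.13 in pool 3. Of the 19 probes, 18 were lower in FR on all 6 arrays, and 17 passed the filter, which asked for 1 of the diets to be well above background on each of the 4 arrays of pools 2 and 3. The FR channel held the dim side. FR was well above background on all 4 of those arrays for 10 probes, on 1 to 3 of them for 7 probes and on 0 for 2 probes, whereas control was so on all 4 arrays for 17 probes. In the limma fit over all features 8 of the 10 genes passed as lower and 0 as higher, beside 24.5% of all features lower and 3.72% higher. Both FR signals of pools 2 and 3 lay below both control signals for all 10 genes, beside 32.5% of all features. Nothing is read from these counts, since the genes were picked from this contrast.

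**Figure D1:**
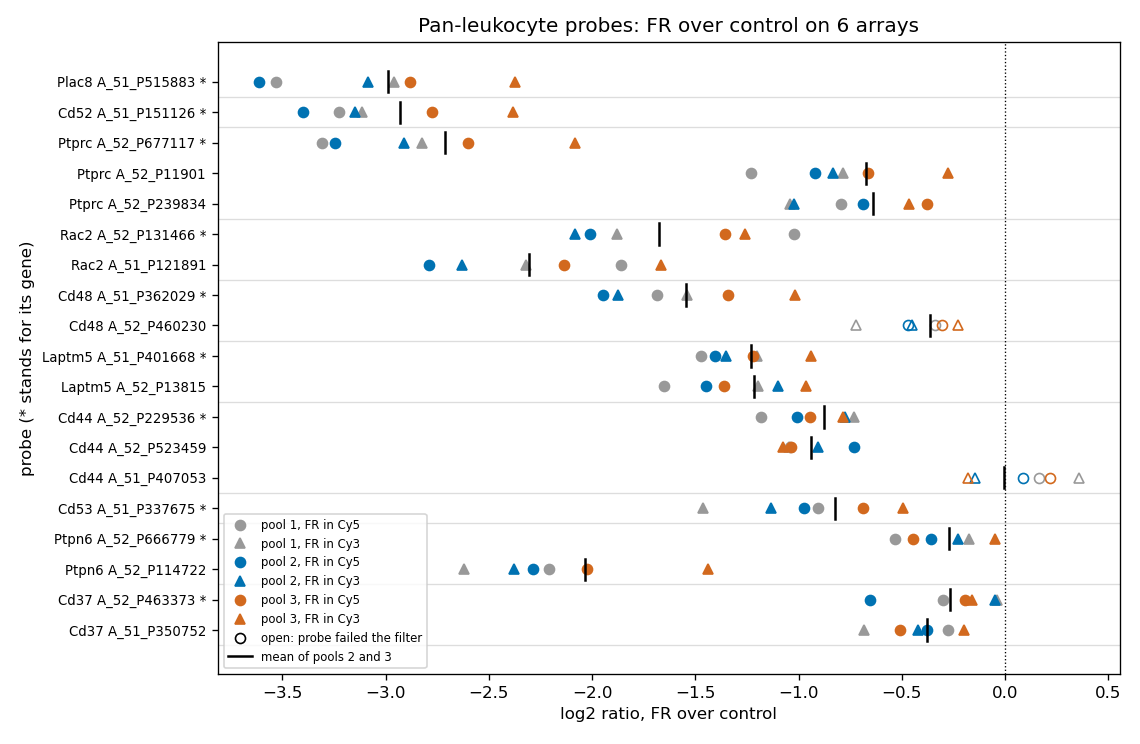
Log2 ratio of FR over control (x axis) on each of the 6 arrays for the 19 probes (y axis), with colours for pools, circles for FR in Cy5, triangles for FR in Cy3, open symbols for probes that failed the filter and bars for the mean of pools 2 and 3. All points except those of the Cd44 probe A_51_P407053 lie below 0, and the starred probes that stand for the genes have means between -2.99 for Plac8 and -0.27 for Cd37.

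The promoters of several of these genes hold a short sequence that is bound by PU.1, the ETS family transcription factor of myeloid and B cells. RefSeq promoters of assembly GRCm38.p6 matched 8 of the 10 genes, in 10 windows, and Cd52 and Rac2 had no entry. The letters GAGGAA were searched on both strands in the 250 bases before each start. They occurred in 6 of the 10 windows, from 6 genes, while 23.3% of 32851 mouse promoters hold them. In the last 100 bases they occurred in 4 of the 10 windows, from 4 genes, against 9.82% of all promoters. A match is a description of the letters and says nothing of binding in these mice.

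The match nearest to the start that left 12 bases on each side is shown for the 6 genes, read 5′ to 3′ on the gene's own strand, with GAGGAA or its complement TTCCTC in capitals. The windows are chr1:138175446-138175475 for Ptprc, chr2:102901868-102901897 for Cd44, chr3:106790171-106790200 for Cd53, chr5:100572334-100572363 for Plac8 and chr7:45238845-45238874 for Cd37, all on the minus strand, and chr4:130913266-130913295 for Laptm5 on the plus strand.
Ptprc: tgttttcctttaGAGGAAaattgagacgaa
Cd44: gataagtccagcTTCCTCagcttcctggga
Cd53: tgcaagttcactGAGGAAcagttgactatc
Plac8: tggaattgtaagGAGGAAaaccctatttgg
Cd37: cccccccggaacTTCCTCtttctctgccgg
Laptm5: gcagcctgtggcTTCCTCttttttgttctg

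The 100 bases before the start are set out for a gene with the letters, the tetraspanin gene Cd53 at chr3:106790150-106790249, and for a gene without them in its window, the phosphatase gene Ptpn6 at chr6:124738710-124738809. Both lie on the minus strand. In Cd53 the match began 39 bases before the start.
Cd53: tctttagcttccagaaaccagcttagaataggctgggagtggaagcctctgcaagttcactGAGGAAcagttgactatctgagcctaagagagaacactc
Ptpn6: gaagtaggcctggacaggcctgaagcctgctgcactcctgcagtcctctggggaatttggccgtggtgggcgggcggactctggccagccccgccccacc
At the probes that stand for the genes, ratios were large and small both with and without the letters, and no link was tested. Ptprc and Cd53 hold a single match and had mean log2 ratios of -2.71 and -0.82. Plac8 and Cd37 hold 2 matches each and had ratios of -2.99 and -0.27. Cd48 and Ptpn6 hold none and had ratios of -1.55 and -0.27. These values depend on the probe. Other probes gave -0.67 and -0.64 for Ptprc, -0.38 for Cd37, -2.03 for Ptpn6 and, failing the filter, -0.36 for Cd48.

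Ptprc codes for CD45, the receptor tyrosine phosphatase that keeps Src family kinases ready for antigen receptor signalling. Its brightest probe, A_52_P677117, had log2 signals of 6.69, 7.40 and 7.10 in FR pools 1, 2 and 3, against 9.76, 10.48 and 9.45 in the control pools. Every FR signal lay below every control signal. The log2 ratio averaged -2.71 ± 0.52 (SD, n = 2 pools), a level 6.55-fold lower in FR, and FR was well above background on 3 of the 4 arrays. The other Ptprc probes were dim in FR, so the size of their difference is not settled by these ratios. A_52_P11901 averaged -0.67 ± 0.29 and its FR signal exceeded background on 0 of 4 arrays, so that control was at least 1.59-fold brighter. This bound equals the measured ratio, because the probe's own FR signal lay above the floor. A_52_P239834 averaged -0.64 ± 0.31, with FR above background on 2 of 4 arrays. With Agilent's processed signals, which subtract background, these probes averaged -2.22 ± 0.51 and -2.14 ± 0.78.

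Ptpn6 codes for SHP-1, a cytoplasmic tyrosine phosphatase that inhibitory receptors recruit to switch off activating signals. Its 2 probes, which carry different transcript accessions of the gene, gave unlike ratios. The brighter one, A_52_P666779, had log2 signals of 8.29, 8.76 and 8.54 in FR pools 1, 2 and 3, against 8.65, 9.05 and 8.79 in the control pools, and a ratio of -0.27 ± 0.03. Within each pool FR was lower, but FR pool 2 lay above control pool 1. The other probe, A_52_P114722, had log2 signals of 6.40, 7.26 and 7.01 in FR pools, against 8.81, 9.59 and 8.74 in control pools. Its ratio averaged -2.03 ± 0.42, or 4.09-fold lower in FR. The ratios of the probes differed by 1.76 over pools 2 and 3, with 2.04 in pool 2 and 1.48 in pool 3. The value for Ptpn6 therefore rests on which probe stands for the gene. With the median over its probes the ratio was -1.15.

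Cd52 and Cd48 code for proteins held in the outer membrane leaflet by a lipid anchor. CD52 is a short glycoprotein abundant on lymphocytes. Its single probe had log2 signals of 8.29, 8.93 and 8.98 in FR pools 1, 2 and 3, against 11.46, 12.21 and 11.56 in control pools. All FR signals were well below all control signals, and FR was still above background on all 4 arrays. The ratio averaged -2.93 ± 0.49, which is 7.61-fold lower in FR. It is the member with the largest difference for which both diets were measured on every array.

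CD48 is a SLAM family ligand for CD2 and CD244 in the mouse. Its probe A_51_P362029 had log2 signals of 6.55, 6.64 and 6.68 in FR pools 1, 2 and 3, against 8.17, 8.56 and 7.86 in control pools. The groups did not overlap. The ratio averaged -1.55 ± 0.52, or 2.92-fold lower in FR, with FR above background on 2 of 4 arrays. The second Cd48 probe, A_52_P460230, failed the filter, since control was above background on 3 of 4 arrays and FR on none. Its ratio of -0.36 ± 0.14 has only a bound, with control at least 1.22-fold brighter.

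**Figure D2:**
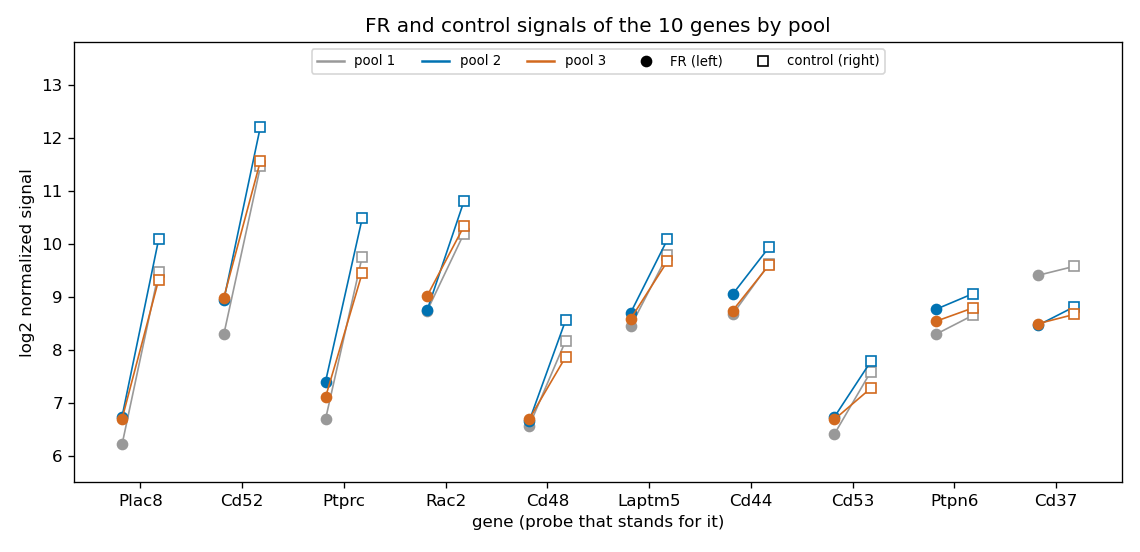
Log2 normalized signal (y axis) of the probe that stands for each of the 10 genes (x axis), with FR as filled circles on the left, control as open squares on the right and a line joining the same pool. Every line climbs to its control value, steeply for Plac8, Cd52 and Ptprc and by under 0.4 for each Ptpn6 and Cd37 line, and heights are to be read within a gene only.

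Cd53 and Cd37 code for leukocyte tetraspanins, which gather receptors and integrins into membrane microdomains. The Cd53 probe had log2 signals of 6.40, 6.72 and 6.68 in FR pools 1, 2 and 3, against 7.59, 7.78 and 7.27 in control pools. All FR signals were below all control signals, but FR was above background on only 2 of 4 arrays. The Cd53 ratio averaged -0.82 ± 0.33, or 1.77-fold lower in FR. Cd37 had log2 signals of 9.40, 8.46 and 8.49 in FR pools at its brighter probe, A_52_P463373, against 9.57, 8.81 and 8.67 in control pools. Its FR and control signals overlapped across pools, since pool 1 was brighter in both diets. The Cd37 ratio was -0.27 ± 0.12 there and -0.38 ± 0.03 at A_51_P350752, with both diets above background on all 4 arrays. These tetraspanins differed in ratio by more than the SD of either.

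Cd44 codes for the hyaluronan receptor, which carries white cells along vessel walls and is also made by many cells outside the blood. Its probe A_52_P229536 had log2 signals of 8.66, 9.04 and 8.73 in FR pools 1, 2 and 3, against 9.62, 9.94 and 9.60 in control pools. FR lay below control throughout, and the ratio of -0.88 ± 0.02, or 1.84-fold, had the smallest SD of the 10 genes. A_52_P523459 gave a similar ratio of -0.94 ± 0.17. The third Cd44 probe, A_51_P407053, failed the filter, with FR above background on 1 of 4 arrays and control on 2. Its ratio was -0.01 ± 0.03, and it was lower in FR on 2 of 6 arrays.

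Laptm5 codes for a lysosomal membrane protein of blood cells that sends antigen receptors for degradation. Log2 signals at A_51_P401668 were 8.44, 8.70 and 8.59 in FR pools 1, 2 and 3, against 9.78, 10.08 and 9.67 in control pools. The groups were apart by about 1 log2 unit. Laptm5 had ratios of -1.23 ± 0.21 and -1.22 ± 0.08 at its 2 probes, which differed by 0.01. Both diets were above background on all 4 arrays at both probes.

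Rac2 codes for the small GTPase of blood cells that drives actin remodelling and activates the phagocyte NADPH oxidase. At A_52_P131466 the log2 signals were 8.74, 8.75 and 9.02 in FR pools 1, 2 and 3, against 10.19, 10.80 and 10.33 in control pools. FR lay below control in all comparisons of pools. The ratio was -1.68 ± 0.52, or 3.20-fold lower in FR, and -2.31 ± 0.57 at A_51_P121891, or 4.94-fold lower. The first probe stood 0.63 above the second, with gaps of 0.66 in pool 2 and 0.59 in pool 3. On the pool 1 arrays A_52_P131466 gave -1.02 with FR in Cy5 and -1.88 with FR in Cy3, the widest gap between dyes among the 17 probes that passed.

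Plac8 codes for a small cysteine-rich protein of white cells and placenta. Its probe had log2 signals of 6.21, 6.74 and 6.69 in FR pools 1, 2 and 3, against 9.46, 10.09 and 9.32 in control pools. No FR signal came near a control signal. The ratio averaged -2.99 ± 0.51, which is 7.94-fold lower in FR and the lowest value among the 10 genes, with FR above background on 2 of 4 arrays. Only 0.104% of all features tested had a lower ratio, against 28.2% for Cd37 at the other end of the order.

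Ordered by ratio the genes ran Plac8, Cd52, Ptprc, Rac2, Cd48, Laptm5, Cd44, Cd53, Ptpn6 and Cd37. Most neighbours in this order did not differ beyond the larger of their SDs. Gaps that did lie between Ptprc and Rac2 at 1.03, between Laptm5 and Cd44 at 0.35 and between Cd53 and Ptpn6 at 0.55 on the log2 scale. The genes were measured on the same pools and so share the spread between them. Within pools, Ptprc lay above Cd52 by 0.20 in pool 2 and 0.24 in pool 3, and Cd48 above Rac2 by 0.14 and 0.13. Cd44 and Cd53 changed places between the pools, as did Ptpn6 and Cd37. The order also depends on the probe and on the signals used. With the median over the probes of a gene, Ptprc was at -0.67, Rac2 at -1.99, Cd53 at -0.82 and Ptpn6 at -1.15. The gaps between Ptprc and Rac2 and between Cd53 and Ptpn6 were then reversed. With processed signals the order ran Plac8, Ptprc, Cd48, Cd52, Cd53, Rac2, Laptm5, Cd44, Ptpn6 and Cd37. The 10 genes thus spanned values from -2.99 to -0.27, and 1 number does not describe them.

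Several ratios were larger with Agilent's processed signals, which are background-subtracted and dye-normalized by the scanner software before the same loess step. Plac8 averaged -5.40 ± 0.60 with them, a 42.1-fold difference where the offset correction gave 7.94-fold. Ptprc averaged -3.80 ± 0.10 at its brightest probe, Cd48 -3.22 ± 0.61 and Cd53 -2.10 ± 0.64. Those 4 genes share FR signals that were above background on 2 or 3 of the 4 arrays. The genes measured on every array kept close to their values, with Cd52 at -3.11 ± 0.29, Rac2 at -1.83 ± 0.51, Laptm5 at -1.41 ± 0.05, Cd44 at -1.04 ± 0.01, Ptpn6 at -0.26 ± 0.05 and Cd37 at -0.24 ± 0.04. These values are for the probes that stand for the genes. The second Rac2 probe, A_51_P121891, was also measured on every array and moved from -2.31 to -2.88. The median over the 10 genes was -1.96 with processed signals.

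**Figure D3:**
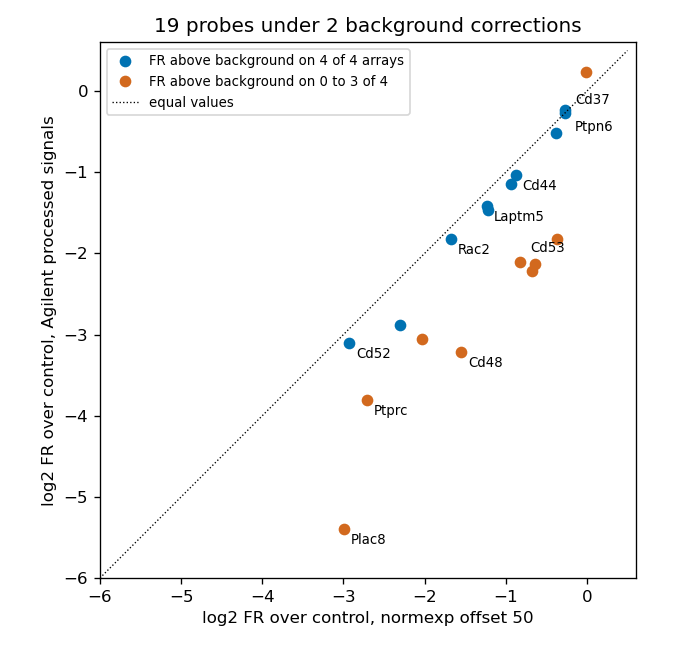
Mean log2 ratio of FR over control for the 19 probes with the offset correction (x axis) and with Agilent processed signals (y axis), with the dotted line at equal values, names beside the probes that stand for genes, blue points for probes whose FR signal exceeded background on each array of pools 2 and 3 and orange points for the others. The points farthest below the line are orange, down to Plac8 at -2.99 and -5.40, Cd52 lies near it at -2.93 and -3.11, and the orange point of the Cd44 probe A_51_P407053 lies above it at -0.01 and 0.23.

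Whether the ratio differed between the pools of 4 mice is another contrast than the one behind the choice of the genes, but it uses the same ratios. A limma fit to the 4 arrays of pools 2 and 3 took the pool 2 ratio minus the pool 3 ratio, with a term for the dye. Its error is that between arrays of the same RNA, so it compares these pools of mice only. The 4 arrays leave little to estimate a feature's own error, so the p-values lean on variance borrowed across features. At the probes that stand for them all 10 genes were lower in pool 2, while the median difference over all features was -0.03. Of the 17 probes that passed the filter, 16 were lower in pool 2. The Cd44 probe A_52_P523459 was higher there, by 0.24. In the test 6 of the 10 genes passed as lower in pool 2, beside 17.9% of 11490 features tested. Of these 6, Ptprc, Cd48, Plac8 and Cd53 passed the filter through their control signal alone, with FR above background on 2 or 3 of 4 arrays. Ptprc had a ratio of -3.08 in pool 2 and -2.34 in pool 3, a difference of -0.74 (adjusted p = 0.000334). Its other probes, dim in FR, differed by -0.40 and -0.43. The difference was -0.74 for Rac2 (adjusted p = 0.000377), -0.73 for Cd48 (adjusted p = 0.000436), -0.72 for Plac8 (adjusted p = 0.000327), -0.70 for Cd52 (adjusted p = 0.000723) and -0.46 for Cd53 (adjusted p = 0.0120). The largest differences, at Ptprc, Rac2, Cd48, Plac8 and Cd52, belonged to the genes with the lowest mean ratios. The test was therefore not independent of how the genes were chosen.

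The other 4 genes missed the threshold, with differences of -0.30 for Laptm5 (adjusted p = 0.0731), -0.18 for Cd37 (adjusted p = 0.348), -0.04 for Ptpn6 (adjusted p = 0.811) and -0.03 for Cd44 (adjusted p = 0.881). The calls depend on the normalization, the dye term and the filter. With each array centred on its median in place of loess, 5 features passed and 0 of the 10 genes did, and without the dye term 32 features passed and 0 of the 10 genes, though 8 and 10 of them were still lower in pool 2. With processed signals 2278 of 11490 features passed, 1359 of them as lower, and 5 of the 10 genes passed as lower. The brightest Ptprc probe then had an SD of only 0.10 between these pools, against 0.52 with the offset correction. Where both diets had to be above background, Ptprc, Cd48, Plac8 and Cd53 dropped out. Of the 6 genes then tested 2 passed as lower, beside 1082 of 7067 features. Other markers differed between the pools as well, and their part in the result was not tested. Markers that passed as lower in pool 2 were 8 of 11 tested for B cells and 6 of 9 for neutrophils. For monocytes they were 4 of 7, for red cells 5 of 12 and for T cells 3 of 9. For NK and cytotoxic cells they were 2 of 6, for endothelium 0 of 6 and for cardiac muscle 0 of 4. In these lists 0 genes passed as higher. Among 11 platelet markers 1 was lower and 2 were higher in pool 2. Over all 11490 features 2053 passed as lower in pool 2 and 489 as higher.

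In pool 1, which mixes the same animals as pools 2 and 3 together, the ratio lay between those of pools 2 and 3 for 8 of the 17 probes that passed, below both for 8 and above both for 1. Over all features the share in between was 52.2%. The array with FR in Cy5 gave the lower ratio in 10, 11 and 15 of these 17 probes in pools 1, 2 and 3. These dye counts have no share of all features beside them, so nothing particular to the 10 genes is read from them.

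The genes nearest to the average pattern of the 10 over the 6 arrays were sought among 7886 other named genes by Euclidean distance between log2 ratios. The 6 arrays share the same 8 animals per diet in 3 overlapping pools. Spib, an ETS factor of B cells and plasmacytoid dendritic cells, was nearest at 0.234 with a mean ratio of -1.58 ± 0.37. Cyb561a3, a lysosomal cytochrome, followed at 0.237 and -1.54, then the ubiquitin ligase gene Rnf115 at 0.245 and -1.42. The endosomal sorting gene Vps28 lay at 0.258 with a ratio of -1.62, and the tetraspanin gene Tspan13 at 0.268 with -1.47. Nkg7, which codes for a granule membrane protein of cytotoxic lymphocytes, lay at 0.269 with -1.52, the nuclear transport GTPase gene Ran at 0.270 with -1.65 and the transcription elongation gene Nelfb at 0.271 with -1.47. Of the 10 genes themselves Cd48 lay closest to their own average, at 0.291, and Plac8 farthest, at 3.71.

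Families and partners of the 10 genes were described from lists, each by its count in the same fit, in which 24.5% of features were lower and 3.72% higher. Among tetraspanins other than Cd53 and Cd37, 6 of 11 tested fell and 0 rose, with a median log2 ratio of -0.68. Cd9, which is abundant on platelets, had -1.94 ± 0.20, Tspan13 -1.47 ± 0.21, Tspan2 -1.40 ± 0.14 and Cd81, a broadly expressed tetraspanin, -1.04 ± 0.04. The other Tspan2 probe had -0.94. In the CD2 and SLAM family 3 of 6 fell, with a median of -0.42. Cd84 had -1.09 ± 0.00, Slamf1 -0.90 ± 0.12, with its other probe at -0.07, and Cd2, the receptor for CD48, -0.68 ± 0.24.

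Kinases and adaptors that work with CD45 gave 8 of 12 lower and 0 higher, with a median of -0.65. Lck, the T cell kinase that CD45 activates, had -1.39 ± 0.33, its B and myeloid cell relative Lyn -1.27 ± 0.04, and the adaptors Skap2 and Fyb -1.41 ± 0.08 and -1.01 ± 0.15. Other probes of Lyn and Fyb had -0.52 and -0.43. Ptprcap, which codes for the CD45-associated protein, had 0.00 ± 0.07 where Ptprc had -2.71. Of 13 other tyrosine phosphatases 8 fell and 0 rose, with a median of -0.51, among them Ptpn1 at -1.07 ± 0.05, Ptpra at -0.76 ± 0.45, Ptprj at -0.73 ± 0.07, with its other probe at -0.05, and Ptpn12 at -0.65 ± 0.14. The other Ptpn12 probe had -0.41.

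For the surroundings of Rac2, 8 of 14 related small GTPases, exchange factors and inhibitors fell and 0 rose, with a median of -0.49. Cdc42, which directs filopodia and polarity, had -1.79 ± 0.33, and the widely expressed Rac1 -1.43 ± 0.04. Other probes of Cdc42 and Rac1 reached -0.63 and -0.39. The inhibitors Arhgdib and Arhgdia had -1.39 ± 0.65 and -0.70 ± 0.35. Of the 5 genes of the phagocyte NADPH oxidase 4 fell, with a median of -0.84. Among these were Ncf4 at -1.55 ± 0.96, the catalytic subunit gene Cybb at -0.84 ± 0.68 and its membrane partner Cyba at -0.78 ± 0.35. The spread between pools was wide for the oxidase genes, and 4 of 5 passed as lower in pool 2, beside 17.9% of all features.

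Linkers of CD44 to the cytoskeleton and leukocyte sialomucins gave 4 of 7 lower and 0 higher, with a median of -0.69. The sialomucin gene Cd164 had -2.02 ± 0.02, with other probes up to -0.25, the linker ezrin, Ezr, -1.97 ± 0.53 and the selectin ligand Selplg -0.69 ± 0.32. The other Selplg probe had -0.36. Among integrins 5 of 6 fell, with a median of -0.75, including the beta subunits Itgb7 at -1.25 ± 0.38, Itgb2 at -1.11 ± 0.18 and Itgb1 at -0.63 ± 0.07, with its other probe at -0.09, and the alpha subunit Itga6 at -0.88 ± 0.25. Around Laptm5, 3 of 4 lysosomal membrane genes fell, Lamp2, Lamp1 and Slc15a4. Lamp2 had -1.45 ± 0.11, with its other probe at -0.97, and Lamp1 had -0.95 ± 0.24. The FR signal of Slc15a4 exceeded background on 0 of 4 arrays, so that control was at least 2.01-fold brighter. The Laptm5 relative Laptm4a rose, at 0.49 ± 0.33, although its other probe had -1.36.

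Set beside markers of single cell types, the median of -1.39 over the 10 genes lay between that of 11 B cell markers, at -1.59, and that of 7 monocyte markers, at -1.10. The B cell list had 9 genes lower, led by the receptor component Cd79b at -4.48 ± 0.27, and the monocyte list 6 lower, led by Ctss at -3.48 ± 0.88. Among 6 markers of NK and cytotoxic cells 4 fell, with a median of -0.996. T cell and neutrophil markers had medians nearer to 0, at -0.27 with 4 of 9 lower and at -0.22 with 4 of 9 lower and 1 higher. Over all features 24.5% were lower and 3.72% higher, and no difference between these lists was tested.

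Markers of cells other than leukocytes moved with the result in part, and their part in it was not tested. Their counts stand beside 24.5% of all features lower and 3.72% higher. Of 11 platelet markers, each measured above background on every FR array, 9 fell, with a median of -1.05 and with the chemokine gene Ppbp at -2.67 ± 0.55. Of 12 erythroid markers 2 rose, 1 fell and 9 missed the threshold, with a median of 0.08. The median was -0.19 in pool 2 and 0.24 in pool 3. Of 6 endothelial markers 2 fell, with a median of -0.02, and Cdh5, which marks vessel lining, had 0.15 ± 0.17. Of 4 cardiac muscle markers tested 0 passed, with a median of 0.13, and Myh6 and Myl2, which define heart muscle, were above background on at most 1 of 4 arrays in FR and 1 of 4 in control. Tnni3 and Mybpc3 were so on 4 of 4 arrays in FR and in control, and Myl7 and Actc1 on 3 in FR and 4 in control.

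**Figure D4:**
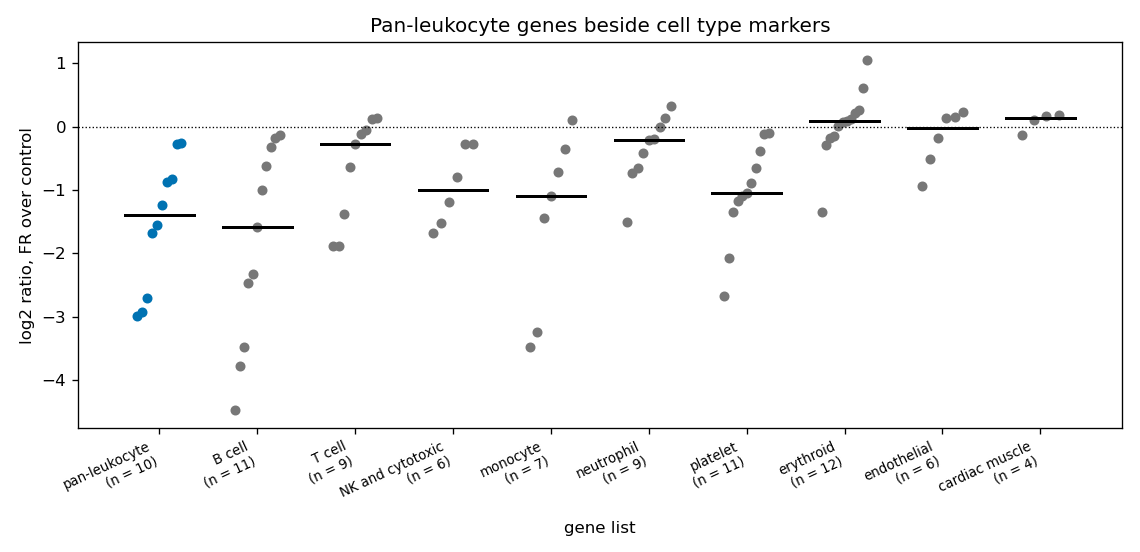
Log2 ratio of FR over control, mean of pools 2 and 3 (y axis), for each gene of the pan-leukocyte set in blue and of 9 cell type marker lists in grey (x axis), with black bars at the list medians and the dotted line at equal levels. The medians lie at -1.39 for the 10 genes and -1.59 for B cell markers, at -0.27 for T cell markers and at 0.08 for erythroid markers.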

How the data were processed

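The 6 arrays hold whole blood RNA, extracted and amplified with kits per the labels' protocols. The deposited scanner files give spot intensity on a linear scale, and the submitters' processing notes name Agilent Feature Extraction 11.0.1.1. The authors' deposited series table gives log10 ratios of red over green processed signal, not centred and with swapped arrays not turned, as a comparison with the scanner values showed. Probes were named by matching accessions to RefSeq (GRCm38.p6), for 23374 of 41174 probes. The array design uses an older build.

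With limma 3.58.1 in R 4.3.3, background was corrected by normexp (offset 50) on median signals and ratios by loess, in which control spots had no weight. Control and outlier spots were dropped, spots of a probe averaged, signs turned to FR over control by the labelled dyes, and both arrays of a pool averaged. Signals of the single channels come after loess and Aquantile. Probes were kept where 1 of the diets was well above background on each array of pools 2 and 3, and the brightest probe stood for its gene. Bounds used the lowest signal well above background as the floor. Ratios of 11501 features, 7903 of them named genes, were tested against 0 (lmFit, eBayes with trend, two-sided, Benjamini-Hochberg adjusted p under 0.05). With 2 pools limma estimated infinite prior degrees of freedom, so all features of like brightness share a variance, whereas 3 pools gave 5.40. The pool difference was fitted to 11490 features with values on all 4 arrays. Each ratio is taken on an array, which pairs the diets by pool number.

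The members and gene lists were chosen with earlier results of these data known. Named were all members, the 8 nearest genes, up to 4 genes per list with the largest absolute ratio among those past the threshold, and defining markers of absent tissues, apart from a few genes that are not reported here. Ptprcap was named after its value was seen. Alternatives covered background, normalization, filter, probe choice, variance model, pairing, pools, dye and slide. Arrays give no counts, and their number limits the precision. No batch other than slide and dye was examined.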

Additional observations from a re-analysis of the deposited data

How the results depend on the processing

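All 10 genes kept ratios below 0 under each of the 17 or 18 alternatives that gave a value for them. Their median of -1.39 was -1.96 with Agilent processed signals and -2.04 with the turned and centred series table, and between -1.55 and -1.30 when 1 pool was left out with pool 1 in its place. The count passing as lower, 8 of 10, was 4 of the 6 genes kept when both diets had to be above background, and 9 to 10 when 1 pool was left out. It was 10 with each array centred on its median, where 4100 of all 11501 features passed as lower and 180 as higher, the median of all features was -0.19, Ptpn6 was at -0.49 and Cd37 at -0.46. The 3250 features that passed, 428 higher and 2822 lower, became 1748 with both diets above background (436 and 1312), 1091 with no replicate block, that is without pairing FR and control on the array, 7998 with slide as a random block on 6 arrays (3545 and 4453), and 2843 to 5881 when pool 2 or pool 3 was left out, with 1717 higher and 4164 lower without pool 3. They were 1961 when the prior degrees of freedom were those estimated from all 3 pools, an alternative added with earlier results known. The 2542 features that differed between pools 2 and 3 became 5 with median centring, 1348 with both diets above background and 32 with no dye term. The cause was not tested, except that fewer features enter when both diets must be above background. FR was above background on only 2 or 3 of 4 arrays for Plac8, Ptprc, Cd48 and Cd53.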

Other observations

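Some genes of the white cell lists had ratios near 0 beside members at -1.39 in the median. Itgal, the alpha chain of the integrin LFA-1, had 0.04 ± 0.14 where its partner Itgb2 had -1.11 ± 0.18 (SD, n = 2 pools). The T cell genes Cd3e and Lat had -0.05 ± 0.14 and 0.13 ± 0.00 where Cd3d had -1.89 ± 0.25, and the B cell receptor component Cd79a had -0.14 ± 0.13 where Cd79b had -4.48 ± 0.27. Spn, which codes for CD43, had -0.06 ± 0.10 at its brighter probe and -1.16 at the other. The FR signal exceeded background on 4 of 4 arrays for these genes at the probe given, except Cd3d on 3, and they were picked after their values were seen.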
